A study of Mus musculus with 2 samples.

Results

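Integrins are the adhesion receptors with which a macrophage holds on to matrix, to endothelium and to its prey, and 10 genes for their subunits were followed through single cells of the infarcted mouse heart. The 10 genes were the α chains *Itgam*, *Itgal*, *Itgax*, *Itgav*, *Itga4* and *Itga5* and the β chains *Itgb2*, *Itgb1*, *Itgb3* and *Itgb5*. They were picked by symbol as integrins of macrophages, and all 10 were found among the 32285 genes of the count matrices. Cells came from the infarct and border zones 3 days after myocardial infarction and had been sorted as positive for CD45, CD11b and CD64. One group was labelled CD40 KO, a knockout of the TNF receptor family member CD40, and the other WT, with 1 droplet library in each. The sources used here name no strain, age, sex or allele, nor how many animals stand behind a library. With a single library on either side nothing could be tested between groups or checked in a replicate. All intervals are exact 95% intervals that cover counting error only, and every direction is one between the CD40 KO-labelled library and the WT library. *Itgam* encodes CD11b itself, so the sort had selected for its protein and the presence of its RNA is no finding.

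An integrin is a pair of 1 α and 1 β chain, and the β chain sets which family it belongs to. Leukocytes carry the β2 integrins, in which *Itgb2* (CD18) pairs with *Itgam* (CD11b, together Mac-1 or complement receptor 3), *Itgal* (CD11a, together LFA-1) or *Itgax* (CD11c). *Itgav* pairs with *Itgb3*, *Itgb5* or *Itgb1* to bind proteins with an RGD motif such as vitronectin and osteopontin, and pairs of αv with β3 or β5 are known from the uptake of dying cells and the activation of latent TGF-β. *Itga4* with *Itgb1* is VLA-4, which binds VCAM-1 and fibronectin, and *Itga5* with *Itgb1* is the classical fibronectin receptor. Integrins are held in a bent, inactive form until talin and kindlin bind the tail of the β chain, so an RNA level says nothing of how many receptors are active.

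The deposited matrix held 8146 barcodes and 90057108 UMIs, where a UMI is 1 counted RNA molecule, for the CD40 KO-labelled library, against 10624 barcodes and 139343516 UMIs for WT. Median depth was 5346.5 UMIs per barcode in the CD40 KO-labelled library and 9353.5 in WT, and the shallowest barcode had 1618 UMIs in the CD40 KO-labelled library and 500 in WT. After filters and doublet removal 7399 barcodes were kept in the CD40 KO-labelled library and 7191 in WT, and 11 barcode sequences occurred in both. Barcodes were clustered without the 10 integrins, and 4 of 13 clusters formed a macrophage-like class of 2350 barcodes in the CD40 KO-labelled library and 5167 in WT. In that class all 19 monocyte and macrophage markers had UMIs, with a summed level of 15745 CPM (a gene's UMIs per 1000000 UMIs of the group) in the CD40 KO-labelled library and 22208 CPM in WT. The targeted transcript does not check the labels: *Cd40* stood at 15.7 CPM (14.5 to 16.9) in the class of the CD40 KO-labelled library and 17.5 CPM (16.6 to 18.5) in WT, the method counts 3′ tags, and no source used here says which part of the gene was deleted.

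The CD40 KO-labelled library stands apart in 1 respect that touches every comparison below. A single cluster held 4382 (59.2%) of its kept barcodes and 25 (0.348%) of those of WT. These library-specific barcodes had a median of 3213.5 UMIs in the CD40 KO-labelled library, and their leading genes were *Mt1*, *Crip1* and *Ndufa3*. All 19 macrophage markers had UMIs there too, at a summed 24177 CPM, yet *Malat1*, a nuclear RNA, stood at 3005 CPM against 8130 CPM in the macrophage-like class of the same library, and ribosomal protein genes took 15.5% of UMIs against 10.9%. The cluster was given no cell type and lies outside the class. Values with these barcodes added to the class are given beside each integrin whose value they moved.

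The 4 macrophage clusters are called states and are named by the genes that led them. A lipid-associated state (*Lpl*, *Gpnmb*, *Fabp5*) made up 34.1% of the class in the CD40 KO-labelled library and 52.7% in WT. A state led by *Plac8*, *Ly6c2* and *Met*, genes of recently arrived monocytes among them, made up 40.0% in the CD40 KO-labelled library and 28.4% in WT. An interferon-response state (*Ifit3*, *Rsad2*, *Cxcl10*) made up 11.1% in the CD40 KO-labelled library and 12.8% in WT, and a state of cycling cells that was also led by *Scin* made up 14.8% in the CD40 KO-labelled library and 6.06% in WT. Since the mix of states differed between the libraries, each integrin is given within states as well as over the class.

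On the GRCm38 genome (GENCODE vM21) the α chains that pair with *Itgb2* sit together on the plus strand of chromosome 7, a shared position that the choice of genes did not use. *Itgal* spans 127296260 to 127335138, *Itgam* 128062640 to 128118491 and *Itgax* 128129547 to 128150657, and *Itgad*, the remaining α partner of *Itgb2*, follows from 128154376 to 128223816. *Itgb2* lies on chromosome 10 from 77530252 to 77565708. *Itga4* (79255426 to 79333123) and *Itgav* (83724397 to 83806916) are both on chromosome 2. *Itgb5*, which had the largest difference of the 9 measured integrins, spans 33829665 to 33949338 on chromosome 16. *Itga5* lies on chromosome 15, *Itgb1* on chromosome 8 and *Itgb3* on chromosome 11.

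Upstream sequence is shown for the neighbours *Itgam* and *Itgax*, for *Itgb5*, and for *Itgb1*, which differed least in CPM between the libraries. The RefSeq promoter table (GRCm38.p6) had an entry for 7 of the 10 genes, and each stretch is the 250 bases before the RefSeq start, written 5′ to 3′. All 4 genes are on the plus strand: *Itgam* at chr7:128062390-128062639, *Itgax* at chr7:128129300-128129549, *Itgb5* at chr16:33829415-33829664 and *Itgb1* at chr8:128685404-128685653. Capitals mark GAGGAA or its reverse complement TTCCTC, the purine core that PU.1 and other ETS factors of myeloid cells can bind, and GGGCGG or its reverse complement CCGCCC, the GC box.
Itgam: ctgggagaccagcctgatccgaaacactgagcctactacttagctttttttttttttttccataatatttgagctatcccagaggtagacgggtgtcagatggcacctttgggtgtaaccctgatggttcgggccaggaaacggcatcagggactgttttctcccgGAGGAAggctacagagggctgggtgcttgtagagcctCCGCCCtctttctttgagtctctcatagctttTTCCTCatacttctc
Itgax: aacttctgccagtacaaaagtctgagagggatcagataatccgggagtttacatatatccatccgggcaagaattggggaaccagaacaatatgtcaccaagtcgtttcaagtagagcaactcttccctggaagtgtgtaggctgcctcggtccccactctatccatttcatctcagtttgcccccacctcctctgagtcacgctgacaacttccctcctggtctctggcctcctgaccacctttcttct
Itgb5: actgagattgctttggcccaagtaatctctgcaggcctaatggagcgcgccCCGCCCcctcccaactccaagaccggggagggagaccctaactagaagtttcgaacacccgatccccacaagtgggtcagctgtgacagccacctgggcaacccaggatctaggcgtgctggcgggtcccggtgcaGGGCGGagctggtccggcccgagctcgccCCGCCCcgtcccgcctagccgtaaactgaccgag
Itgb1: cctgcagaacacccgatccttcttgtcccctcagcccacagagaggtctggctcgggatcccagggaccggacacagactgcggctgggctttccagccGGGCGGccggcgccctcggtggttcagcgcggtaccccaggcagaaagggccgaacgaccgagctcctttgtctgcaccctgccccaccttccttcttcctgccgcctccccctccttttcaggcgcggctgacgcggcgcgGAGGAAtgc
The *Itgam* stretch held 2 matches to the purine core and 1 GC box, *Itgb5* held 3 GC boxes and no purine core, *Itgb1* held 1 of each, and *Itgax* held neither. Of all 32851 promoter stretches of that length, 23.25% held the purine core and 32.74% the GC box on either strand. Neither motif overlapped the other in these stretches, and a match describes letters, not a bound site.

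In the macrophage-like class the β5 chain was the one integrin of the 10 that was clearly lower in the CD40 KO-labelled library, and the LFA-1 α chain *Itgal* the one that was higher by the size rule. A gene counted as measured when its mean over the libraries reached 10 CPM, and as higher or lower from a difference of 1.3-fold. By that rule 9 of the 10 integrins were measured, *Itgb3* being too low. Of the 9, 1 was higher (*Itgal*), 1 was lower (*Itgb5*) and 7 lay between. Over all 7595 genes measured in the class, 20.0% were higher and 10.3% lower, so counts of 1 in either direction are near the background. The median log2 ratio of CD40 KO over WT was 0.21 over the 9 integrins and 0.10 over all measured genes.

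**Figure D1:**
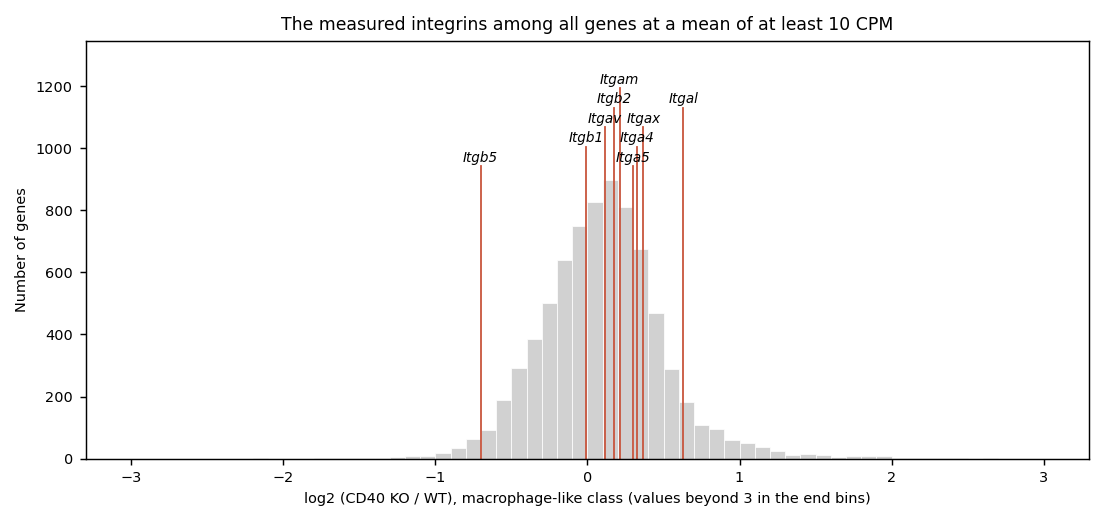
Histogram of the log2 ratio (CD40 KO over WT, x axis) of all genes at a mean of at least 10 CPM in the macrophage-like class, with the number of genes on the y axis and the 9 measured integrins as red lines whose heights are set for legibility only. *Itgb5* lies in the lower tail at -0.70 and *Itgal* at 0.63, while the other 7 lie between -0.01 and 0.37, near the bulk of genes.

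Within the states the same gene was lower each time and the set of higher ones varied. In the lipid-associated state 0 of 8 measured integrins were higher and 1, *Itgb5*, was lower, against 18.1% and 8.85% of all measured genes. In the *Met* and *Ly6c2* state 2 of 9 were higher (*Itgam* and *Itgal*) and *Itgb5* was lower, against 18.9% and 17.0%. In the interferon-response state 2 of 8 were higher (*Itgax* and *Itga4*) and 2 lower (*Itgb2* and *Itgb5*), against 26.0% and 16.4%. *Itgax* was under 10 CPM in WT there and entered the count only through the CD40 KO-labelled library, so nothing is read from that call. In the cycling state *Itgav* was higher and *Itgb5* lower of 8 measured, against 20.2% and 10.8%. *Itgb5* was thus the 1 gene called in the same direction in all 4 states.

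**Figure D2:**
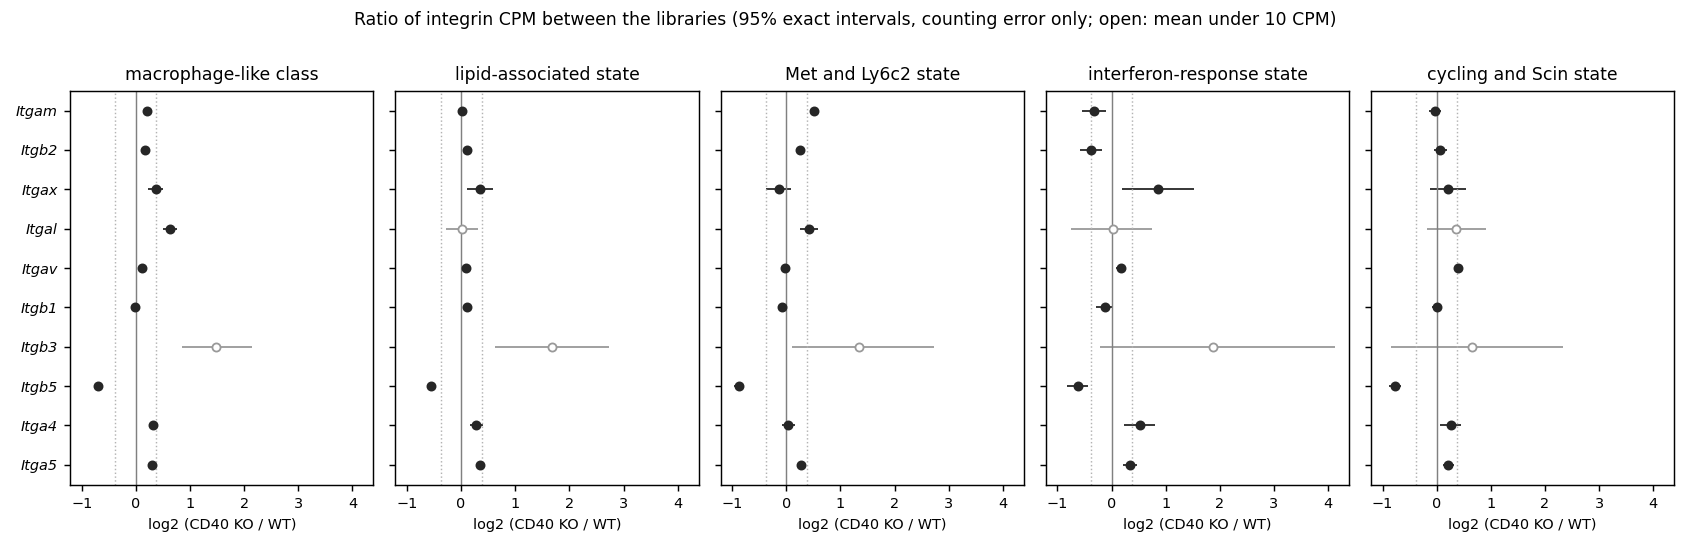
Log2 ratio of CPM, CD40 KO over WT (x axis), for the 10 integrins (rows) in the macrophage-like class and its 4 states (panels); bars are 95% exact intervals for counting error, dotted lines mark 1.3-fold, and open symbols are genes under a mean of 10 CPM. *Itgb5* lies left of the lower dotted line in all 5 panels, from -0.88 in the *Met* and *Ly6c2* state to -0.56 in the lipid-associated state.

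*Itgam*, the α chain of Mac-1, had 8529 UMIs in the class of the CD40 KO-labelled library and 11887 in WT. That is 187 CPM (183 to 191) in the CD40 KO-labelled library and 161 CPM (158 to 164) in WT, a log2 ratio of 0.21 (0.17 to 0.25). The higher level was not shared by all states. In the *Met* and *Ly6c2* state *Itgam* stood at 251 CPM (243 to 258) in the CD40 KO-labelled library against 176 CPM (169 to 183) in WT, a log2 ratio of 0.51 (0.44 to 0.58). In the lipid-associated state it stood at 168 CPM in the CD40 KO-labelled library and 166 CPM in WT, with intervals that overlapped, as they did in the cycling state. In the interferon-response state the CD40 KO-labelled library was the lower one, at 87.2 CPM (76.0 to 99.4) against 109 CPM (101 to 117) in WT, a log2 ratio of -0.32 (-0.55 to -0.10). With the library-specific barcodes added to the class the log2 ratio of *Itgam* was 0.00, and the added barcodes of the CD40 KO-labelled library by themselves stood at 96.8 CPM.

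Across cell types *Itgam* followed the myeloid lineage. Neutrophil-like cells had the most in both libraries, with 288 CPM (218 to 375) in the CD40 KO-labelled library and 327 CPM (288 to 371) in WT, an interval that overlapped that of the *Met* and *Ly6c2* state in the CD40 KO-labelled library and not in WT. Dendritic-like cells had 153 CPM in the CD40 KO-labelled library and 135 CPM in WT, within the range of the macrophage states. Types that should lack the gene also held some UMIs: fibroblast-like barcodes had 28.6 CPM in the CD40 KO-labelled library, or 21.7 CPM without 1 barcode, and 9.29 CPM in WT, and endothelial-like barcodes of WT 6.67 CPM. The 12 endothelial-like barcodes of the CD40 KO-labelled library had 99.3 CPM from 15 UMIs, beside a summed macrophage marker level of 5545 CPM, against 608 CPM in those of WT. In T-like or NK-like barcodes of the CD40 KO-labelled library 22 of 24 *Itgam* UMIs came from 1 of 12 barcodes, and the level there was 25.4 CPM without it.

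*Itgb2*, the β chain without which none of the CD11 chains reaches the surface, had a profile close to that of *Itgam* over the macrophage states. It stood at 172 CPM (168 to 175) in the class of the CD40 KO-labelled library and at 152 CPM (149 to 155) in WT, a log2 ratio of 0.18 (0.13 to 0.22). The *Met* and *Ly6c2* state had the most of the 4 states in both libraries, 221 CPM in the CD40 KO-labelled library and 187 CPM in WT. The interferon-response state turned the other way, with 101 CPM (88.6 to 114) in the CD40 KO-labelled library and 131 CPM (122 to 140) in WT, a log2 ratio of -0.38 (-0.59 to -0.18) that just passed the limit of 1.3-fold. Over the 19 units of cluster and library with at least 50 barcodes, the Pearson correlation of log2(CPM + 1) between *Itgam* and *Itgb2* was 0.96, which describes units that share libraries and depth. The units include fibroblast-like and endothelial-like ones, where both genes were low. Neither T-like or NK-like nor B-like barcodes formed such a unit. T-like or NK-like cells of WT had a log2 ratio over the class of -0.24 (-0.83 to 0.29) for *Itgb2* and -5.13 (-10.4 to -2.66) for *Itgam*. In the CD40 KO-labelled library these ratios were 0.14 and -0.10, with most of the *Itgam* UMIs from 1 barcode.

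*Itgal*, the α chain of LFA-1, was the 1 integrin called higher in the class. It had 897 UMIs or 19.7 CPM (18.4 to 21.0) in the CD40 KO-labelled library and 936 UMIs or 12.7 CPM (11.9 to 13.5) in WT, a log2 ratio of 0.63 (0.50 to 0.76). With every state given the same share in both libraries the log2 ratio was 0.30, under the limit of 1.3-fold. The *Met* and *Ly6c2* state held most of the gene, with 41.0 CPM (37.9 to 44.3) in the CD40 KO-labelled library and 30.7 CPM (28.0 to 33.6) in WT, a log2 ratio of 0.42 (0.24 to 0.59). The lipid-associated state had 8.20 CPM in the CD40 KO-labelled library and 8.10 CPM in WT, and neither the interferon-response nor the cycling state passed 10 CPM in either library.

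The *Itgal* ratio differed between bins of depth, and other cell types hold more of the gene than macrophages do. Among class barcodes of 3000 to 6000 UMIs its log2 ratio was -0.89 (-1.86 to -0.03), from 18.1 CPM over 158 barcodes in the CD40 KO-labelled library and 33.7 CPM over 501 in WT. In the next bins, each of doubled depth, the log2 ratio was 1.13, 1.01 and 0.37. Neutrophil-like cells had 155 CPM of *Itgal* (104 to 221) in the CD40 KO-labelled library and 96.5 CPM (75.8 to 121) in WT. The 15 neutrophil markers all had UMIs in the class, with a summed 212 CPM in the CD40 KO-labelled library and 154 CPM in WT. In the *Met* and *Ly6c2* state their sum was 262 CPM in the CD40 KO-labelled library, where *Camp* was at 0, and 165 CPM in WT, where *Ly6g* and *Camp* were at 0, while in neutrophil-like cells it was 54262 CPM in the CD40 KO-labelled library and 40913 CPM in WT. T-like or NK-like cells had the most *Itgal*, 182 CPM in the CD40 KO-labelled library and 193 CPM in WT, and their interval overlapped that of neutrophil-like cells in the CD40 KO-labelled library and not in WT. The 12 T and NK markers summed to 89.1 CPM in the class of the CD40 KO-labelled library, where *Cd3g* was at 0, and 106 CPM in WT. The part of these cells and of depth in the difference was not tested.

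*Itgax* (CD11c) marked dendritic-like cells far more than macrophages. Dendritic-like barcodes had 87.2 CPM (79.4 to 95.7) in the CD40 KO-labelled library and 73.6 CPM (65.9 to 81.9) in WT. Neutrophil-like cells came next in both libraries, with 61.8 CPM (31.9 to 108) in the CD40 KO-labelled library and 43.1 CPM (29.6 to 60.5) in WT. Their interval overlapped that of dendritic-like cells in the CD40 KO-labelled library and not in WT. The macrophage-like class had 16.3 CPM (15.1 to 17.5) in the CD40 KO-labelled library and 12.6 CPM (11.8 to 13.5) in WT. The log2 ratio in the class was 0.37 (0.23 to 0.51), or 1.29-fold, just under the limit. With every state given the same share in both libraries it was 0.16. By state it was 0.35 (0.10 to 0.59) in the lipid-associated and 0.21 (-0.12 to 0.54) in the cycling state. In the *Met* and *Ly6c2* state the sign was the other way, at -0.14 (-0.38 to 0.09). The 12 dendritic markers all had UMIs in the class, with a summed level of 22.9 CPM in the CD40 KO-labelled library and 9.02 CPM in WT, against 724 CPM in dendritic-like cells of the CD40 KO-labelled library and 771 CPM in those of WT, and their part in the result was not tested. Nor was that of the neutrophil markers, which had UMIs in the class as given for *Itgal*. The call in the interferon-response state, 14.2 CPM in the CD40 KO-labelled library and 7.79 CPM in WT with a log2 ratio of 0.87 (0.20 to 1.52), rested on 36 UMIs in the CD40 KO-labelled library and 48 in WT. Library-specific barcodes of the CD40 KO-labelled library had 37.3 CPM, and with them the class ratio of *Itgax* was 0.81 on the log2 scale.

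Read as shares, the α chains that can pair with *Itgb2* gave mostly *Itgam* tags in every macrophage state. In the class *Itgam* gave 83.7% (82.9 to 84.4) of the UMIs of these 4 α chains in the CD40 KO-labelled library and 86.3% (85.7 to 86.9) in WT. *Itgal* gave 8.80% in the CD40 KO-labelled library and 6.80% in WT, *Itgax* gave 7.30% in the CD40 KO-labelled library and 6.76% in WT, and *Itgad* gave 0.255% in the CD40 KO-labelled library and 0.152% in WT. In the lipid-associated state the share of *Itgal* was 4.33% in the CD40 KO-labelled library and 4.41% in WT, and in the *Met* and *Ly6c2* state 13.2% in the CD40 KO-labelled library and 13.5% in WT. Dendritic-like cells gave 34.3% of these UMIs to *Itgax* in the CD40 KO-labelled library and 32.9% in WT. The cells had been sorted for CD11b, the product of *Itgam*, so its large share is no finding. These shares are of 3′ tags and do not give the make-up of the protein pairs.

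**Figure D3:**
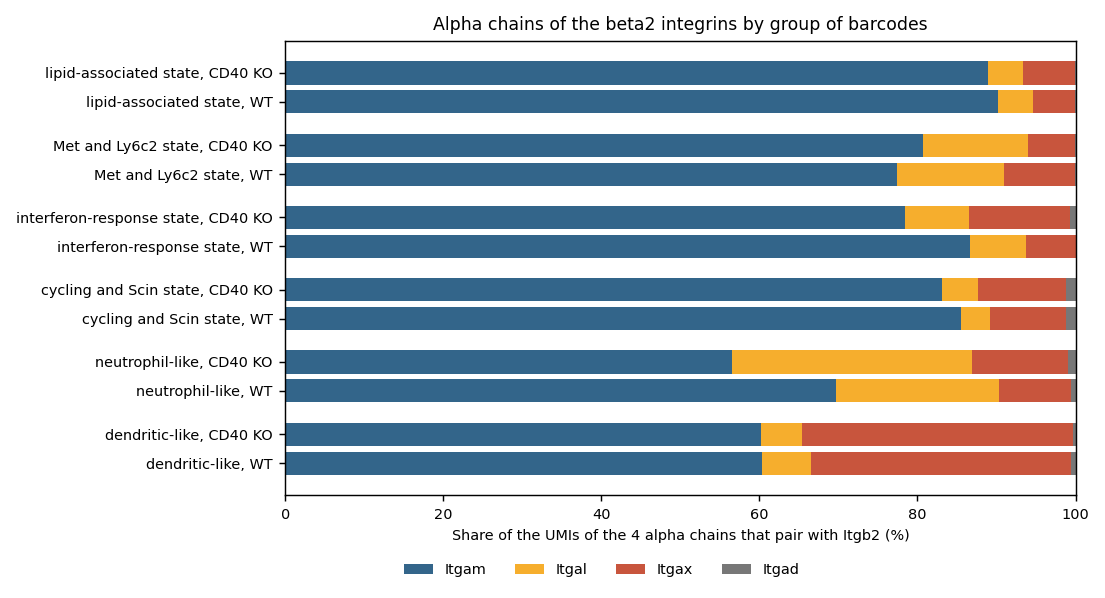
Share (x axis, percent) of the UMIs of the 4 α chains that pair with *Itgb2* in each macrophage state and in neutrophil-like and dendritic-like barcodes, with the CD40 KO-labelled library above WT in each pair. *Itgam*, whose protein the sort selected for, takes 77.4% to 90.2% in the macrophage states. In dendritic-like barcodes *Itgax* takes 34.3% in the CD40 KO-labelled library and 32.9% in WT.

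Among the partners of the αv chain, *Itgb5* carried the largest difference of the 9 measured integrins. It had 5871 UMIs in the class of the CD40 KO-labelled library and 15427 in WT, which is 129 CPM (125 to 132) in the CD40 KO-labelled library and 209 CPM (206 to 213) in WT. The level in the CD40 KO-labelled library was 1.63-fold lower, a log2 ratio of -0.70 (-0.75 to -0.66). Only 145 (1.91%) of the 7595 measured genes had a ratio as low or lower. A UMI of *Itgb5* was seen in 72.8% of class barcodes of the CD40 KO-labelled library and 80.8% of WT, while after thinning each barcode to 3000 UMIs the share was 30.9% of 2253 barcodes in the CD40 KO-labelled library and 43.7% of 4958 in WT. The gap was thus present at equal depth, with 97 shallower barcodes of the CD40 KO-labelled library and 209 of WT left out.

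The gap of *Itgb5* was present in each macrophage state. The lipid-associated state had 141 CPM (135 to 147) in the CD40 KO-labelled library and 208 CPM (203 to 212) in WT. The *Met* and *Ly6c2* state had the widest gap, 127 CPM (122 to 133) in the CD40 KO-labelled library against 234 CPM (227 to 242) in WT, a log2 ratio of -0.88 (-0.96 to -0.80). In the interferon-response state the level was 114 CPM (101 to 127) in the CD40 KO-labelled library and 175 CPM (165 to 186) in WT, and in the cycling state it was 115 CPM (109 to 122) in the CD40 KO-labelled library and 197 CPM (187 to 207) in WT. The order of the states differed between the libraries: the lipid-associated state was highest in the CD40 KO-labelled library and the *Met* and *Ly6c2* state in WT. Over 4 bins of depth between 3000 and 48000 UMIs the log2 ratio lay between -0.89 and -0.64.

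Other cells showed the *Itgb5* gap in part. Dendritic-like cells had 62.8 CPM (56.2 to 70.0) in the CD40 KO-labelled library and 110 CPM (101 to 120) in WT, a log2 ratio of -0.81 (-1.02 to -0.61) where 16.0% of genes measured in them were lower. Fibroblast-like cells, which also carry β5, had 173 CPM (156 to 191) in the CD40 KO-labelled library and 183 CPM (169 to 197) in WT, with a log2 ratio of -0.08 (-0.26 to 0.10). The difference between these cell types was not tested. Library-specific barcodes of the CD40 KO-labelled library had 117 CPM (112 to 122), below every macrophage state of WT. Types with little β5 were neutrophil-like cells, at 25.8 CPM in the CD40 KO-labelled library and 33.9 CPM in WT, and endothelial-like cells of WT, at 23.0 CPM (16.3 to 31.6). In T-like or NK-like cells of WT 0 UMIs were found among 217697, and the limit of 3 counts that a 0 allows is 13.8 CPM.

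*Itgav* itself did not follow its β5 partner. It stood at 533 CPM (527 to 540) in the class of the CD40 KO-labelled library and 492 CPM (487 to 497) in WT, a log2 ratio of 0.12 (0.09 to 0.14). The cycling state had 518 CPM (504 to 532) in the CD40 KO-labelled library and 393 CPM (379 to 407) in WT, a log2 ratio of 0.40 (0.33 to 0.46) that just passed the limit, while the *Met* and *Ly6c2* state had 553 CPM in the CD40 KO-labelled library and 560 CPM in WT with overlapping intervals. The sign of the class ratio held in 10 of 12 alternative settings and turned to -0.14 with the library-specific barcodes, which had 224 CPM in the CD40 KO-labelled library. Neutrophil-like cells had the least among types of over 50 barcodes in both libraries, 191 CPM (134 to 263) in the CD40 KO-labelled library and 121 CPM (97.9 to 149) in WT.

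*Itgb3*, the β chain of the vitronectin receptor of osteoclasts and platelets, was far under the floor of 10 CPM in macrophages. It had 59 UMIs over 2350 class barcodes of the CD40 KO-labelled library, or 1.29 CPM (0.984 to 1.67), and 34 UMIs over 5167 barcodes of WT, or 0.461 CPM (0.319 to 0.645). The interval of the log2 ratio, 0.85 to 2.14, excludes 0, but both levels lay under 10 CPM and no call was made. Endothelial-like cells of WT had 21.8 CPM (15.3 to 30.2), and B-like barcodes 58.0 CPM from 4 UMIs in the CD40 KO-labelled library and 81.0 CPM from 10 UMIs in WT. After thinning, a UMI of both *Itgav* and *Itgb5* was seen in 21.9% (20.2 to 23.6) of class barcodes of the CD40 KO-labelled library and 28.9% (27.6 to 30.2) of WT. Detection of each gene independently of the other would give 20.2% in the CD40 KO-labelled library and 28.6% in WT. A UMI of both *Itgav* and *Itgb3* was seen in 0.266% of the CD40 KO-labelled library and 0.040% of WT, where independence would give 0.319% and 0.053%. Each observed interval includes the independent share, so nothing about pairing is read from these values.

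**Figure D4:**
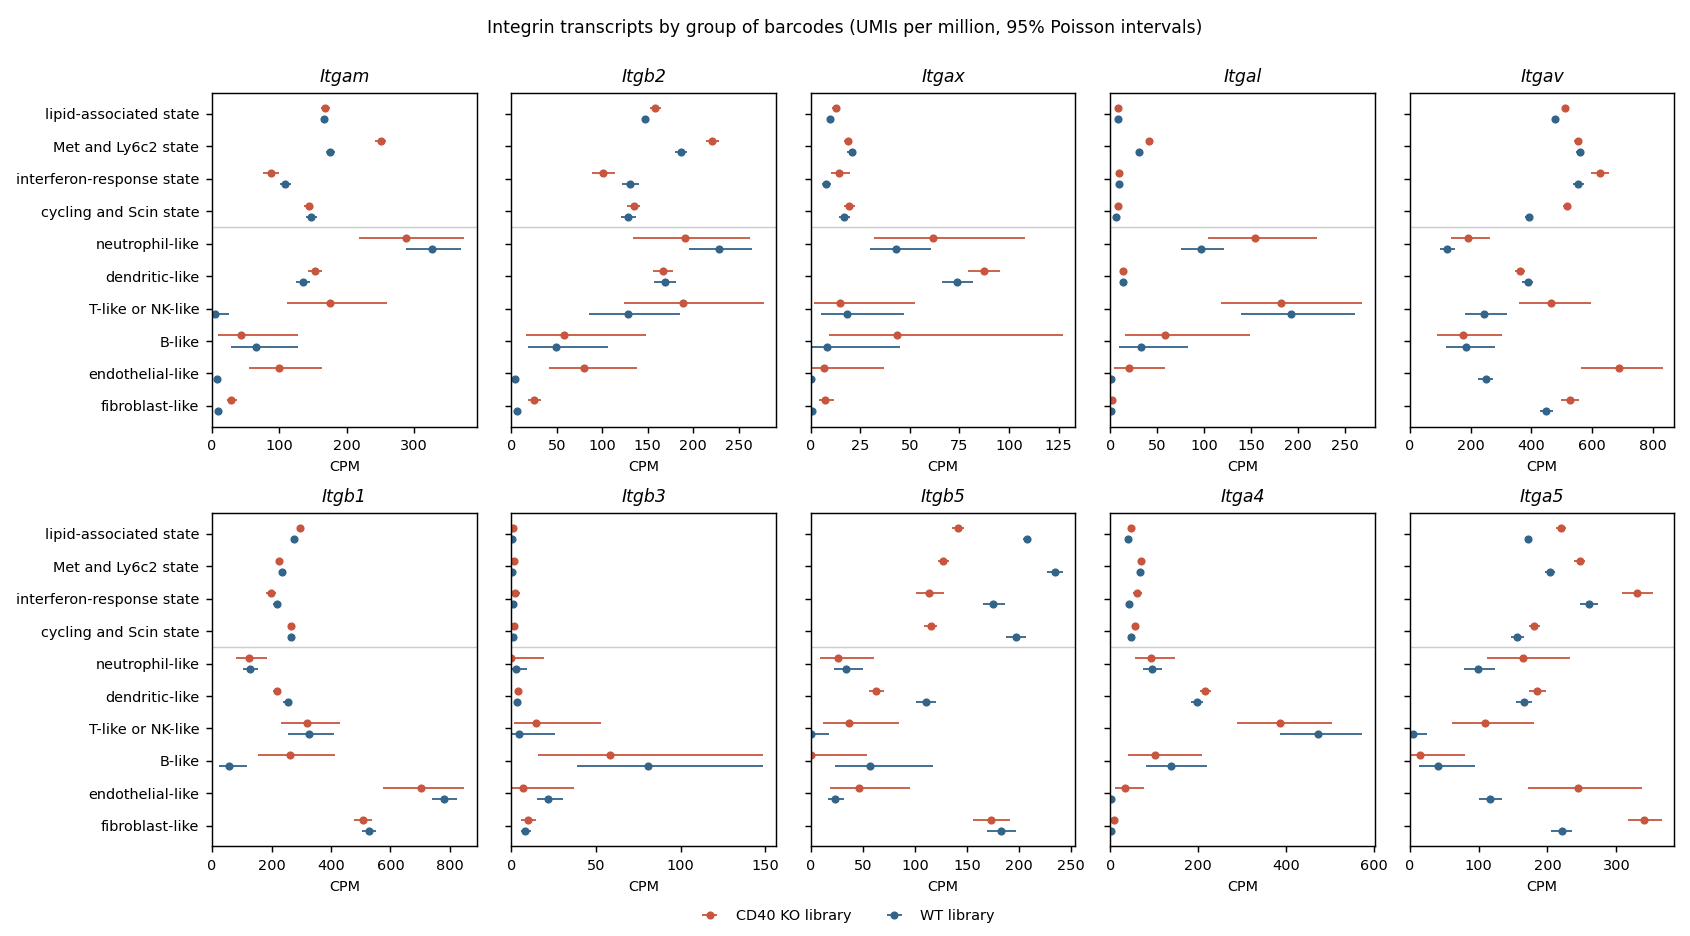
CPM (x axis, with 95% Poisson intervals for counting error) of the 10 integrins in 4 macrophage states (above the grey line) and 6 other types (below it), with the CD40 KO-labelled library in red above WT in blue in each row. *Itgb5* shows lower values in red than in blue in all 4 states, *Itgax* peaks in dendritic-like cells at 87.2 CPM in red and 73.6 CPM in blue, and *Itgb1* peaks in endothelial-like cells at 701 CPM in red and 781 CPM in blue.

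In CPM the β1 chain differed least of the 9 measured integrins. With median-of-ratios scaling, which takes the all-gene median off each ratio, it did not. The class log2 ratio was then -0.11 for *Itgb1*, 0.02 for *Itgav* and 0.08 for *Itgb2*. *Itgb1* had 259 CPM (254 to 264) in the class of the CD40 KO-labelled library and 261 CPM (257 to 265) in WT, a log2 ratio of -0.01 (-0.04 to 0.02). In the lipid-associated state it had 297 CPM (289 to 306) in the CD40 KO-labelled library and 275 CPM (270 to 280) in WT, and in the *Met* and *Ly6c2* state 224 CPM (217 to 232) in the CD40 KO-labelled library and 236 CPM (229 to 244) in WT, both under 1.3-fold. The lipid-associated interval of the log2 ratio, 0.07 to 0.16, includes the all-gene median of that state, 0.08. Its sign in the class was the same in 9 of 12 alternatives, and with the library-specific barcodes the log2 ratio was -0.18. *Itgb1*, which is widely expressed outside the blood lineages, was highest in endothelial-like cells, at 701 CPM (574 to 848) in the CD40 KO-labelled library and 781 CPM (739 to 825) in WT. Fibroblast-like cells followed with 507 CPM (478 to 538) in the CD40 KO-labelled library and 527 CPM (504 to 550) in WT.

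*Itga4*, the α chain of VLA-4, was not called in the class. It had 58.0 CPM (55.8 to 60.3) in the CD40 KO-labelled library and 46.3 CPM (44.8 to 47.9) in WT, a log2 ratio of 0.33 (0.25 to 0.40) that was 0.11 with the library-specific barcodes. The *Met* and *Ly6c2* state had the most in both libraries and hardly any gap, with 69.9 CPM (65.8 to 74.1) in the CD40 KO-labelled library and 68.2 CPM (64.2 to 72.5) in WT. The interferon-response state was the one called higher, at 61.1 CPM (51.9 to 71.5) in the CD40 KO-labelled library against 42.7 CPM (37.7 to 48.2) in WT, a log2 ratio of 0.52 (0.22 to 0.81). Lymphoid and dendritic cells had far more: T-like or NK-like cells had 386 CPM (289 to 505) in the CD40 KO-labelled library and 473 CPM (386 to 574) in WT, and dendritic-like cells had 216 CPM (204 to 229) in the CD40 KO-labelled library and 197 CPM (185 to 210) in WT. Fibroblast-like cells, which should have little, had 7.26 CPM in the CD40 KO-labelled library, or 3.72 CPM without 1 barcode, and 1.33 CPM in WT.

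*Itga5*, the α chain of the fibronectin receptor, was somewhat higher in the CD40 KO-labelled library in all 4 states without passing 1.3-fold in any of them. Over the class it had 226 CPM (222 to 231) in the CD40 KO-labelled library and 184 CPM (181 to 187) in WT, a log2 ratio of 0.30 (0.26 to 0.33) that was 0.22 with the library-specific barcodes. State ratios ran between 0.21 in the cycling state and 0.35 in the lipid-associated state on the log2 scale. The interferon-response state had the most of the 4 in both libraries, 330 CPM (308 to 353) in the CD40 KO-labelled library and 260 CPM (247 to 273) in WT. Fibroblast-like cells had 341 CPM (317 to 366) in the CD40 KO-labelled library and 221 CPM (206 to 236) in WT, and 1 barcode of the CD40 KO-labelled library supplied 145 of the 751 UMIs there, without which the level was 306 CPM.

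Set side by side, the states of the class carried different integrin profiles in both libraries. Relative to the lipid-associated state, the *Met* and *Ly6c2* state had more *Itgal*, by a log2 difference of 2.32 (2.05 to 2.60) in the CD40 KO-labelled library and 1.92 (1.72 to 2.13) in WT. It also had more *Itga4*, by 0.56 in the CD40 KO-labelled library and 0.80 in WT, and more *Itgb2*, by 0.48 in the CD40 KO-labelled library and 0.35 in WT. Its *Itgb1* was lower, with a log2 difference of -0.41 in the CD40 KO-labelled library and -0.22 in WT. The interferon-response state had less *Itgam* than the lipid-associated state, with log2 ratios of -0.95 (-1.15 to -0.75) in the CD40 KO-labelled library and -0.61 (-0.72 to -0.49) in WT, and more *Itga5*, with 0.59 in the CD40 KO-labelled library and 0.60 in WT. *Itgb5* was the exception to these shared orders: the log2 ratio of the *Met* and *Ly6c2* state over the lipid-associated state was -0.15 (-0.23 to -0.06) in the CD40 KO-labelled library and 0.17 (0.12 to 0.23) in WT.

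Outside the macrophages the called integrins differed by cell type, and many of the calls rested on little RNA. In dendritic-like cells 0 of 9 measured integrins were higher and 1, *Itgb5*, was lower, against 11.6% and 16.0% of the genes measured there. In neutrophil-like cells, of which there were 63 barcodes in the CD40 KO-labelled library and 302 in WT, 4 of 9 were higher (*Itgax*, *Itgal*, *Itgav* and *Itga5*) and *Itgb5* was lower, against 28.8% and 34.4%. The intervals of the log2 ratio there include 0 for *Itgb5* (-2.14 to 1.01) and *Itgax* (-0.57 to 1.51). In fibroblast-like cells 3 of 6 were higher (*Itga5* and the leukocyte chains *Itgam* and *Itgb2*) and 0 lower, against 17.9% and 29.1%. *Itgam* and *Itgb2*, at 9.29 and 5.57 CPM in WT, reached the floor only through the CD40 KO-labelled library, so nothing is read from their calls. The 19 macrophage markers summed to 2950 CPM in fibroblast-like barcodes of the CD40 KO-labelled library and 1176 CPM in those of WT, and their part in these fibroblast values was not tested.

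Macrophage barcodes that also held neutrophil transcripts formed a cluster of their own outside the class, with 211 barcodes in the CD40 KO-labelled library and 888 in WT. *Itgb5* again was the lone lower integrin there, at 130 CPM (121 to 140) in the CD40 KO-labelled library and 199 CPM (193 to 205) in WT, where 14.3% of all measured genes were lower. *Itgax*, *Itgal* and *Itga5* were higher, 3 of 9 measured against 23.4% of all genes. *Itgal* stood at 36.1 CPM (31.5 to 41.2) in the CD40 KO-labelled library and 24.0 CPM (22.0 to 26.2) in WT.

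The genes most like each integrin over the 19 units were named by the highest Pearson correlation of log2(CPM + 1) among 7935 genes. For *Itgb2* these were *Pirb* (0.99) and *Laptm5* (0.99), for *Itgam* *Cd300ld* (0.97) and *Pla2g7* (0.97), for *Itgal* *Clec4e* (0.96) and *Plaur* (0.96), and for *Itgax* *Gpr132* (0.96) and *Bcl2a1d* (0.95). For *Itgav* they were *Cdk14* (0.97) and *Katnbl1* (0.93), for *Itgb5* *Dse* (0.95) and *Rnase4* (0.92), and for *Itgb3* *Tanc1* (0.93) and *Nckap1* (0.93). For *Itgb1* they were *Dag1* (0.96) and *Ttc3* (0.96), for *Itga4* *Malt1* (0.97) and *Lrrc8d* (0.97), and for *Itga5* *Impact* (0.93) and *Man2a1* (0.89). Among the integrins, *Itgb2* and *Itgb1* ran opposite to each other at -0.85, and *Itgav* ran with *Itga5* at 0.86. The units include fibroblast-like barcodes of both libraries and endothelial-like barcodes of WT. In fibroblast-like barcodes of WT *Itgb2* stood at 5.57 CPM and *Itgb1* at 527 CPM, and in the endothelial-like ones at 4.24 and 781 CPM. Correlations over the macrophage states alone were not computed, so none is read as a relation within macrophages. These values describe units that share libraries.

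Of the 17 other integrin subunits, 4 reached a mean of 10 CPM in the class, and 3 of them were higher and 1 lower in the CD40 KO-labelled library, against 20.0% and 10.3% of all genes measured in the class. *Itga6*, a laminin receptor chain, was the second lower subunit beside *Itgb5*, at 102 CPM in the CD40 KO-labelled library and 185 CPM in WT, a log2 ratio of -0.87 (-0.91 to -0.82). It was lower in each state, with log2 ratios between -0.91 in the *Met* and *Ly6c2* state and -0.60 in the lipid-associated state. *Itga9*, which binds tenascin and osteopontin, was higher at 135 CPM in the CD40 KO-labelled library and 71.2 CPM in WT, a log2 ratio of 0.92 (0.87 to 0.98), and again in each state, between 0.38 in the *Met* and *Ly6c2* state and 1.27 in the interferon-response state. *Itga1*, a collagen receptor chain, had 15.8 CPM in the CD40 KO-labelled library and 5.92 CPM in WT, a log2 ratio of 1.41, and was thus counted only through the library in which it was high. *Itgb7*, a partner of *Itga4*, had 52.6 CPM in the CD40 KO-labelled library and 39.9 CPM in WT, a log2 ratio of 0.40 (0.32 to 0.48). By state it was called higher only in the *Met* and *Ly6c2* state, at 84.2 CPM in the CD40 KO-labelled library and 57.1 CPM in WT (log2 ratio 0.56). In the lipid-associated state it had 36.0 CPM in the CD40 KO-labelled library and 34.0 CPM in WT. The log2 ratio was -0.01 in the interferon-response and 0.28 in the cycling state.

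Genes that regulate the switching on of integrins, some of which restrain it, differed little as a list. Of 22 genes of inside-out activation, 18 were measured in the class, 4 were higher and 1 lower (all genes: 20.0% and 10.3%), with a median log2 ratio of 0.07 beside 0.10 for all measured genes. The kindlin of blood cells, *Fermt3*, stood at 173 CPM in the CD40 KO-labelled library and 183 CPM in WT, and talin, *Tln1*, at 212 CPM in the CD40 KO-labelled library and 222 CPM in WT. *Cytip*, which binds cytohesin-1 and restrains LFA-1, was higher at 267 CPM in the CD40 KO-labelled library and 149 CPM in WT (log2 ratio 0.84), as was *Filip1l* (0.59). *Dok1*, which competes with talin for the β tail, was the lower one at 15.2 CPM in the CD40 KO-labelled library and 28.7 CPM in WT (-0.92), and *Itgb1bp1* had a log2 ratio of -0.33.

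In the lists downstream of the receptors most measured genes lay between the limits, and the shares called are to be read against 20.0% of all genes higher and 10.3% lower. Among 16 measured genes of the adhesion complex 4 were higher and 1 lower (median log2 ratio 0.16), with *Nedd9* (0.78) and *Lims1* (0.47) at the top and *Tns1* (-0.52) and *Actn1* (-0.38) at the bottom. Among 17 measured kinases and exchange factors 4 were higher and 2 lower (median 0.09). The Src family kinase *Fyn* stood out with 274 CPM in the CD40 KO-labelled library and 126 CPM in WT, a log2 ratio of 1.12 (1.09 to 1.16), and it was higher in both large states, at 1.16 in the lipid-associated and 0.67 in the *Met* and *Ly6c2* state. *Vav3* (0.62) followed, and *Pik3cd* (-0.46) and *Vav2* (-0.39) were lowest. Among 11 measured genes of integrin traffic 2 were higher, *Ehd1* (0.52) and *Mib1* (0.38), and 1 lower, *Snx17* (-0.44), a sorting nexin that returns β1 to the surface, while *Vps35* had -0.22.

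Ligand genes found in the class ranged widely. Of 36 ligand genes looked for, 33 had a row and 13 were measured, of which 6 were higher and 3 lower against 20.0% and 10.3% of all genes, with a median log2 ratio of 0.35 beside 0.10 for all genes. Of the 9 called, *Edil3* and *Mfge8* were under 10 CPM in one library, and 5 higher and 2 lower reached 10 CPM in both. *Spp1* (osteopontin) had 4786 CPM in the CD40 KO-labelled library and 10955 CPM in WT, a log2 ratio of -1.19 that was -0.95 in the lipid-associated state, which it helps to define, and -0.23 in the *Met* and *Ly6c2* state. *Mfge8*, which bridges dying cells to αv integrins, had 8.72 CPM in the CD40 KO-labelled library and 19.7 CPM in WT, a log2 ratio of -1.18. *Edil3*, a related bridging protein, had 19.3 CPM in the CD40 KO-labelled library and 3.70 CPM in WT, a log2 ratio of 2.38. *C3*, whose fragment iC3b is the ligand of Mac-1, had 33.3 CPM in the CD40 KO-labelled library and 15.2 CPM in WT, a log2 ratio of 1.13. Among 11 measured membrane partners 1 was higher, *Cd81* (0.59), *Cd44* had 0.35, and 2 were lower, the tetraspanin *Cd63* (-1.16) and the scavenger receptor *Cd36* (-0.75). *Cd81* was also the 1 higher partner in the lipid-associated state, but not in the *Met* and *Ly6c2* state. There 0 of 10 measured partners were higher and 3 were lower, *Cd81* among them, against 18.9% and 17.0% of all genes measured in that state.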

How the data were processed

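RNA was measured with 10x 3′ v3 kits in 1 library per group. The authors deposited filtered matrices of UMI counts per gene and barcode, and the file headers record Cell Ranger 7.0.1. STAR and the mm10 genome appear in the submitters' processing notes. Whether intronic reads were counted is not stated in the sources used here.

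Barcodes with under 1000 UMIs, under 500 genes or over 10% mitochondrial UMIs were dropped. The highest doublet scores (0.8% per 1000 deposited barcodes) removed 531 barcodes of the CD40 KO-labelled library and 903 of WT. Counts scaled to 10000 gave 2000 variable genes, without the 10 integrins, *Cd40* and ribosomal, mitochondrial, haemoglobin and sex-linked genes, then 30 components, 15 neighbours and Leiden clusters at resolution 0.6 (scanpy 1.11.5, igraph 0.11.9, scikit-learn 1.9.0, Python 3.11.15). Clusters were named from marker genes, and those classed as macrophage-like with at least 200 barcodes in each library are the states. The cluster of macrophage barcodes with neutrophil transcripts, 211 in the CD40 KO-labelled library and 888 in WT, was given no class. It was therefore not a state. UMIs were summed per group of barcodes and divided by their total (CPM). Intervals are exact Poisson, exact binomial (Clopper-Pearson) or, for ratios, conditional binomial ones, at 95%. Only the interval for ratios was tried on simulated class sums. These were drawn as Poisson counts, the model that interval assumes, so the trial leaves out spread between barcodes. A count of 0 was given the limit of 3 counts. UMIs are not corrected for gene length, so levels of different genes are not ranked.

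The integrins, lists and markers were chosen with earlier results of these data known. Named beside the 10 integrins were the other measured subunits, the 2 highest and 2 lowest genes of each list in the class and the 2 genes most like each integrin; *Tln1*, *Fermt3* and the state values of *Fyn* and *Spp1* were added after the values were seen. Alternatives changed scaling, weighting, filters, doublets, clustering, gating, depth, floor and fold. The additions of 2 clusters to the class, the depth bins, the values without 1 barcode and the counts of genes at 10 CPM in both libraries were chosen after seeing the data.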

Additional observations from a re-analysis of the deposited data

Results flagged for a closer look

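The integrins below had ratios of opposite sign in different macrophage states, each with an interval that excludes 0. With 1 library per group the difference between states was not tested. The log2 ratio of *Itgam*, CD40 KO-labelled library over WT, was 0.5101 in the *Met* and *Ly6c2* state and -0.3194 in the interferon-response state. *Itgb2*, its β chain, had 0.1092 in the lipid-associated state and 0.2441 in the *Met* and *Ly6c2* state, against -0.3814 in the interferon-response state. *Itgb1* had 0.1144 in the lipid-associated state and -0.0739 in the *Met* and *Ly6c2* state, both under 1.3-fold. The lipid-associated intervals of *Itgb1* (0.07 to 0.16) and *Itgb2* (0.04 to 0.17) include the all-gene median of that state, 0.08, so the sign of either there rests on the scaling. The interferon-response state was the smallest contributor of *Itgam* UMIs, with 221 in the CD40 KO-labelled library and 670 in WT.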

How the results depend on the processing

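*Itgb5* was the 1 integrin lower by 1.3-fold in the class under all 15 alternatives, and its log2 ratio lay between -0.81 and -0.64 in the 12 that give one for each gene. The signs of *Itgam*, *Itgb2*, *Itgax*, *Itgal*, *Itgb3*, *Itga4* and *Itga5* held in all 12, that of *Itgav* in 10 and that of *Itgb1* in 9. The log2 ratio of *Itgam* was only 0.0018 with the library-specific barcodes and 0.0873 with a per-barcode marker gate, so nothing is read from its sign there. The count of 1 integrin higher in the class was 0 with equal state shares or a floor of 50 CPM, 2 with per-barcode means, without doublet removal, at Leiden resolution 0.3, without a floor or with the library-specific barcodes, and 3 with a per-barcode marker gate. That gate passed 1145 barcodes of the CD40 KO-labelled library, 516 of them library-specific, and 1929 of WT. Within states, the 5 cases of an integrin being higher were 3 with median-of-ratios scaling, without doublet removal or with a floor of 50 CPM, 2 with the UMI minimum of the CD40 KO-labelled library, 1 at Leiden resolution 0.3 or from 1.5-fold, and 9 without a floor. They were 4 with per-barcode means, 6 at Leiden resolution 1.0, and 7 with a mitochondrial limit of 5% or barcodes thinned to 3000 UMIs. The 5 cases of being lower were 3 with that UMI minimum, a mitochondrial limit of 5%, no doublet removal, Leiden resolution 0.3 or 1.5-fold. They were 4 with per-barcode means, and 6 with median-of-ratios scaling, Leiden resolution 1.0 or thinning. With that UMI minimum, the 5% limit, no doublet removal and resolution 0.3 no interferon-response cluster of at least 200 barcodes in each library was found, which leaves 3 states to count. Equal state shares, the marker gate and the clusters added after seeing the data give no count within states. For the rest the cause was not tested. Total scaling left the median log2 ratio of all measured genes in the class at 0.10, and ratios are to be read relative to it. No paired analysis was possible because there was 1 library per group. *Itgb3* lay under the floor of 10 CPM in macrophages, with 59 UMIs in the class of the CD40 KO-labelled library and 34 in WT. Depth limits every integrin in T-like, B-like and endothelial-like barcodes of the CD40 KO-labelled library, of which there were 12, 11 and 12.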
